A study of Homo sapiens with 8 samples.

Results

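The Krüppel-like factors are zinc finger transcription factors, and 10 of the 18 family genes that were looked up among the 62086 genes of the count table are described here, namely KLF2, KLF3, KLF4, KLF5, KLF6, KLF9, KLF10, KLF11, KLF13 and KLF15. They were picked by symbol, with their levels in these libraries and their differences between anti-M8nAb and IgG already known. For that reason the differences between antibodies are given for these 10 genes as a description, without a test. All 10 passed the filter on low counts that left 20165 genes, and the cells were hESCs of the line BG01 kept in mTeSR medium. They received 5 µg/mL of the neutralizing antibody against MFG-E8 (anti-M8nAb) or the same amount of normal mouse isotype IgG, for 12 or 24 h. RNA from each of the 4 groups was sequenced in 2 libraries labelled as biological replicates, 8 in all, and whether these came from separate cultures is not given in the sources used here, so a p-value here reflects only the spread among these libraries. Every group came from this single cell line.

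Family members share a carboxy-terminal DNA-binding domain of 3 zinc fingers and recognise GC-rich or CACCC elements in promoters, which the related SP factors also bind. They differ in the amino-terminal part. KLF2, KLF4, KLF5, KLF6 and KLF7 recruit histone acetyltransferases and are mainly activators, KLF3, KLF8 and KLF12 repress through the corepressor CtBP, and KLF9, KLF10, KLF11, KLF13, KLF14 and KLF16 bind the corepressor SIN3A. KLF15 stands outside these subgroups and is known for its part in amino acid and glucose metabolism. In mouse embryonic stem cells KLF2, KLF4 and KLF5 act together in naive self-renewal, and KLF4 is one of the factors used to reprogramme somatic cells.

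Upstream sequences are printed for genes at least 2-fold apart at 24 h with a RefSeq promoter entry at the start of the canonical transcript. These are KLF2, KLF5, KLF6 and KLF15. The sequences show where GC boxes, CCAAT boxes and a site for MEF2 factors lie. Each run is 5′ to 3′ on the strand of the gene, in GRCh38.p14, and ends 1 base before the start site, except that of KLF6, which stops 73 bases before it because exon bases of another transcript follow. The stretches lie at chr19:16324626-16324825 (plus strand) for KLF2, at chr13:73058805-73059004 (plus strand) for KLF5, at chr10:3785282-3785409 (minus strand) for KLF6 and at chr3:126357409-126357608 (minus strand) for KLF15. Capitals mark GC boxes, which read GGGCGG. They also mark CCAAT boxes and, in KLF2, a site for MEF2 factors, each on either strand. CACCC elements were searched only as the longer run CCACACCC, so shorter CACCC runs are neither marked nor counted.
KLF2: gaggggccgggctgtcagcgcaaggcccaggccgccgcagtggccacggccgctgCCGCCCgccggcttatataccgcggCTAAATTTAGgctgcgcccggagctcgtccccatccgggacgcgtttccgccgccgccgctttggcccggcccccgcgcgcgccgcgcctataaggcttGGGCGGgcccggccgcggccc
KLF5: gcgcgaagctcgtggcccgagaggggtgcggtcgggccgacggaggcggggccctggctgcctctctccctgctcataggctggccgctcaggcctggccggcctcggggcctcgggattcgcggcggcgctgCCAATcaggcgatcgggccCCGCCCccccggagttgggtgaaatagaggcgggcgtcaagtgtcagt
KLF6: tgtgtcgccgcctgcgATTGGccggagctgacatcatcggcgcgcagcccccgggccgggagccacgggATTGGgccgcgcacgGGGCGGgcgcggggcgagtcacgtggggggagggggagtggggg
KLF15: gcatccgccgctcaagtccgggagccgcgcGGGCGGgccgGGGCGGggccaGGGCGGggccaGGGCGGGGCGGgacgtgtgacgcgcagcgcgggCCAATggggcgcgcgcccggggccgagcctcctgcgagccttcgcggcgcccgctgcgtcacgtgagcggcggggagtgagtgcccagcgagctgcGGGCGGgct

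The GC box was searched in the 250 bases upstream of 7 of the 10 genes, since KLF3 and KLF10 had no entry and that of KLF11 lay away from the canonical start. It was present in 6 of the 7, in all but KLF9, and in 42.6% of the 35116 human promoter entries. KLF15 held 6 GC boxes, of which 2 overlap by 1 base, and KLF2 and KLF4 held 4 each. The CCAAT box was present in 5 of the 7 and in 32% of all entries. The MEF2 site, found in 2.8% of all entries, was present only in KLF2 among the 7, at 120 to 111 bases before the start. None of the 7 held TATAAA (10.7% of all entries), CCACACCC (2.97%), TGACGTCA (1.65%), TGANTCA (6.57%), GTAAACA (2.98%) or a CArG box (1.16%) in this window. The GC content of the 250 bases was 32.4% in KLF9, below the median of 58% over all entries. In the others of the 7 it was above that median, from 69.2% in KLF4 to 80.4% in KLF15. A match of letters is a description and not a bound site.

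Counts over genes were 21010400 to 21792716 per library, and levels below are counts per 1e6 counts scaled by TMM (CPM). POU5F1, the pluripotency factor, was at group means of 1319 to 1566 CPM. It rose with anti-M8nAb at both times (log2 fold change 0.15 and 0.25, edgeR adjusted p = 0.00335 and 2.65e-06). The summed level of 8 pluripotency markers was 5988 to 6106 CPM with IgG and 6464 to 6531 CPM with anti-M8nAb at 12 h. At 24 h it was 5481 to 5530 and 5801 to 6009 CPM. LIN28A of this list also rose at 24 h (0.19, edgeR adjusted p = 0.000258). SOX2 and NANOG fell then (-0.26 and -0.25, edgeR adjusted p = 0.000128 and 0.00108). Of the markers of other cells, some were near 0, with group means of DCN and LUM of the fibroblast at no more than 0.391 and 0.22 CPM, of PECAM1 of the endothelium at no more than 0.288 CPM and of SOX17 of the endoderm at no more than 0.0974 CPM. Others of the same lists were not, with group means of 63.5 to 83.0 CPM for COL1A1, 31.2 to 66.5 CPM for COL1A2, 23.0 to 54.7 CPM for PDGFRB and 40.0 to 52.6 CPM for the endothelial KDR. COL1A2 fell (log2 fold change -1.09, edgeR adjusted p = 1.37e-14) and PDGFRB rose (0.68, edgeR adjusted p = 1.02e-08) at 24 h with anti-M8nAb. The summed level of 5 neural markers, carried by MAP2, was 34.5 to 37.0 CPM with IgG and 45 to 46 CPM with anti-M8nAb at 12 h, and 25.8 to 29.1 and 40.1 to 42.4 CPM at 24 h. MAP2 rose at both times (log2 fold change 0.34 and 0.68, edgeR adjusted p = 0.00283 and 4.84e-08). DCX of the same list fell from 3.11 to 1.75 CPM at 12 h (edgeR adjusted p = 0.0367). It also fell at 24 h, from 2.04 to 0.755 CPM (edgeR adjusted p = 0.00147). SOX1 and PAX6 rose at 12 h (edgeR adjusted p = 0.0114 and 0.00103). Neither was past the threshold at 24 h (edgeR adjusted p = 0.0577 and 0.0573). The summed level of 7 fibroblast markers, carried by THY1, was 529 to 530 CPM with IgG and 571 to 608 CPM with anti-M8nAb at 12 h, and 608 to 629 and 707 to 732 CPM at 24 h. The summed level of 5 endoderm markers was 3.82 to 4.83 CPM with IgG and 5.79 to 8.54 CPM with anti-M8nAb at 12 h, and 3.92 to 5.55 and 7.89 to 7.93 CPM at 24 h. CXCR4 carried this excess, with means of 1.68 and 6.62 CPM at 24 h, while FOXA2 of the same list fell from 2.81 to 0.682 CPM (edgeR adjusted p = 5.42e-06). The sum of the 6 trophoblast and amnion markers, carried by KRT7, was 18.7 to 20.4 CPM with IgG and 16.9 to 17.4 CPM with anti-M8nAb at 12 h, and 20.3 to 21.3 and 19.4 to 20.3 CPM at 24 h. KRT7 fell at 12 h from 19.1 to 14.6 CPM (edgeR adjusted p = 0.00809), while GATA3 and GATA2 of that list rose from 0.115 and 0.207 to 1.09 and 0.876 CPM (edgeR adjusted p = 0.000255 and 0.00901). The sums were 0.599 to 2.71 CPM for 5 mesoderm markers and 41.7 to 57.5 CPM for 5 endothelial and blood markers. HAND1 was at 0 in both IgG groups and DCN and LUM were at 0 with anti-M8nAb at 24 h. The part of these marker levels in the results below was not tested. The RNA came from whole cultures, so fewer cells that express a gene and less RNA of it per cell cannot be told apart. Reads of both strands may have been counted together. A gene on the other strand overlaps 9.7%, 9.1% and 3.9% of the exon bases of KLF4, KLF11 and KLF3.

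Per unit of transcript length, 6 of the 10 genes carried nearly all of the summed transcript of these 10 in control hESCs. Of the family genes outside the 10, KLF16 was higher than each of the 10, at 17.5 ± 0.398 FPKM with IgG at 12 h (SD, n = 2), and KLF7 and KLF12 were at 2.74 and 2.06 FPKM. In the FPKM of the authors, KLF10 was the highest of the 10 with IgG at 12 h, at 6.49 ± 0.118 (SD, n = 2), followed by KLF3 at 6.13 ± 0.363, KLF6 at 5.35 ± 0.134, KLF13 at 4.71 ± 0.495, KLF11 at 4.13 ± 0.216 and KLF15 at 3.39 ± 0.0871 FPKM. The other 4 genes, KLF4, KLF5, KLF9 and KLF2, were between 0.132 and 0.273 FPKM on average. KLF4 and KLF5 overlapped between their libraries, as did KLF9 and KLF2, and all other neighbours in this order had separate libraries. With IgG at 24 h the first 6 genes kept this order, with KLF11 and KLF15 overlapping.

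With anti-M8nAb the order was another one. Among the 10, KLF11 was highest at 12 h at 8.42 ± 0.139 FPKM, ahead of KLF6 at 7.20 ± 0.283 FPKM, and KLF10 was in the fourth place at 5.05 ± 0.305 FPKM. At 24 h KLF6 was highest at 12.6 ± 0.0659 FPKM, and KLF11 at 6.86 ± 0.22 and KLF3 at 6.51 ± 0.298 FPKM overlapped behind it. KLF15, at 0.533 ± 0.0359 FPKM, was then within the range of KLF4 at 0.552 ± 0.119 FPKM and below KLF5 at 1.62 ± 0.119 FPKM.

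**Figure D1:**
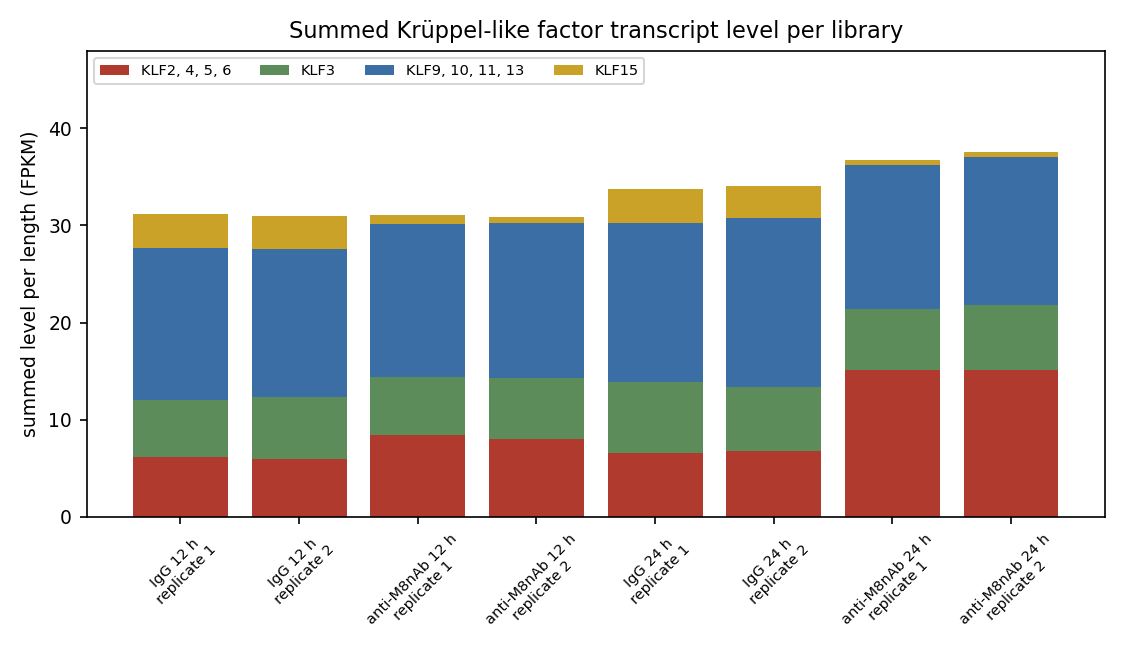
Summed FPKM of the 10 Krüppel-like factors in each of the 8 libraries, stacked by subgroup, with activators at the bottom. The sum was 30.9 to 31.1 FPKM in the 4 libraries at 12 h, and the red share of KLF2, KLF4, KLF5 and KLF6 was 15.1 FPKM in both anti-M8nAb libraries at 24 h against 6.55 and 6.73 FPKM in the IgG libraries.

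The sum over the 10 genes hardly differed between antibodies at 12 h, while its make-up did. It was 31.1 and 30.9 FPKM in the IgG libraries and 31.0 and 30.9 FPKM in the anti-M8nAb libraries at 12 h, and 33.8 and 34.0 against 36.8 and 37.5 FPKM at 24 h. The activators KLF2, KLF4, KLF5 and KLF6 made up 19.7% and 19.1% of it with IgG and 27.2% and 26.0% with anti-M8nAb at 12 h. At 24 h they made up 19.4% and 19.8% with IgG and 41.1% and 40.3% with anti-M8nAb, most of it KLF6. The activator KLF7 is outside the 10 and not in these sums. Its mean was 2.74 FPKM with IgG and 4.66 FPKM with anti-M8nAb at 12 h, and 2.31 and 6.91 FPKM at 24 h. The SIN3A-binding KLF9, KLF10, KLF11 and KLF13 were at 15.7 and 15.3 FPKM with IgG and 15.8 and 16 with anti-M8nAb at 12 h. At 24 h their sum was 16.3 and 17.4 FPKM with IgG against 14.8 and 15.2 FPKM with anti-M8nAb. Within it, KLF11 was higher and KLF10 and KLF13 were lower given anti-M8nAb. KLF16, which also binds SIN3A, is outside the 10 and not in these sums. Its mean went from 17.5 FPKM with IgG to 13.4 with anti-M8nAb at 12 h, and from 18.0 to 14.2 at 24 h. KLF15 went from 9.58% to 11.1% of the sum in the IgG libraries to 1.35% to 2.82% in the anti-M8nAb libraries.

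At 12 h with anti-M8nAb, KLF4 and KLF11 were at least 2-fold higher and KLF15 at least 2-fold lower than with IgG, with both libraries of one group beyond both of the other. By this rule 4.79% of all genes tested were higher and 4.18% lower. At 24 h KLF2, KLF5, KLF6 and KLF11 were higher and KLF15 was lower by the same rule, against 6.0% of all genes higher and 5.99% lower. Because the genes were chosen with these differences in view, nothing is read from the counts. Without a threshold on the fold, 3 genes were higher and 3 lower with separate libraries at 12 h, against 32.9% and 33.3% of all genes, and 5 were higher and 3 lower at 24 h, against 34.8% and 34.2%. KLF3 and KLF9 overlapped at both times. The median absolute log2 fold change was 0.71 over the 10 genes and 0.26 over all genes at 12 h. At 24 h these medians were 0.87 and 0.32. The same choice of genes bears on the medians, so nothing is read from them either. Each difference at 12 h and at 24 h is taken against the IgG libraries of the same time.

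**Figure D2:**
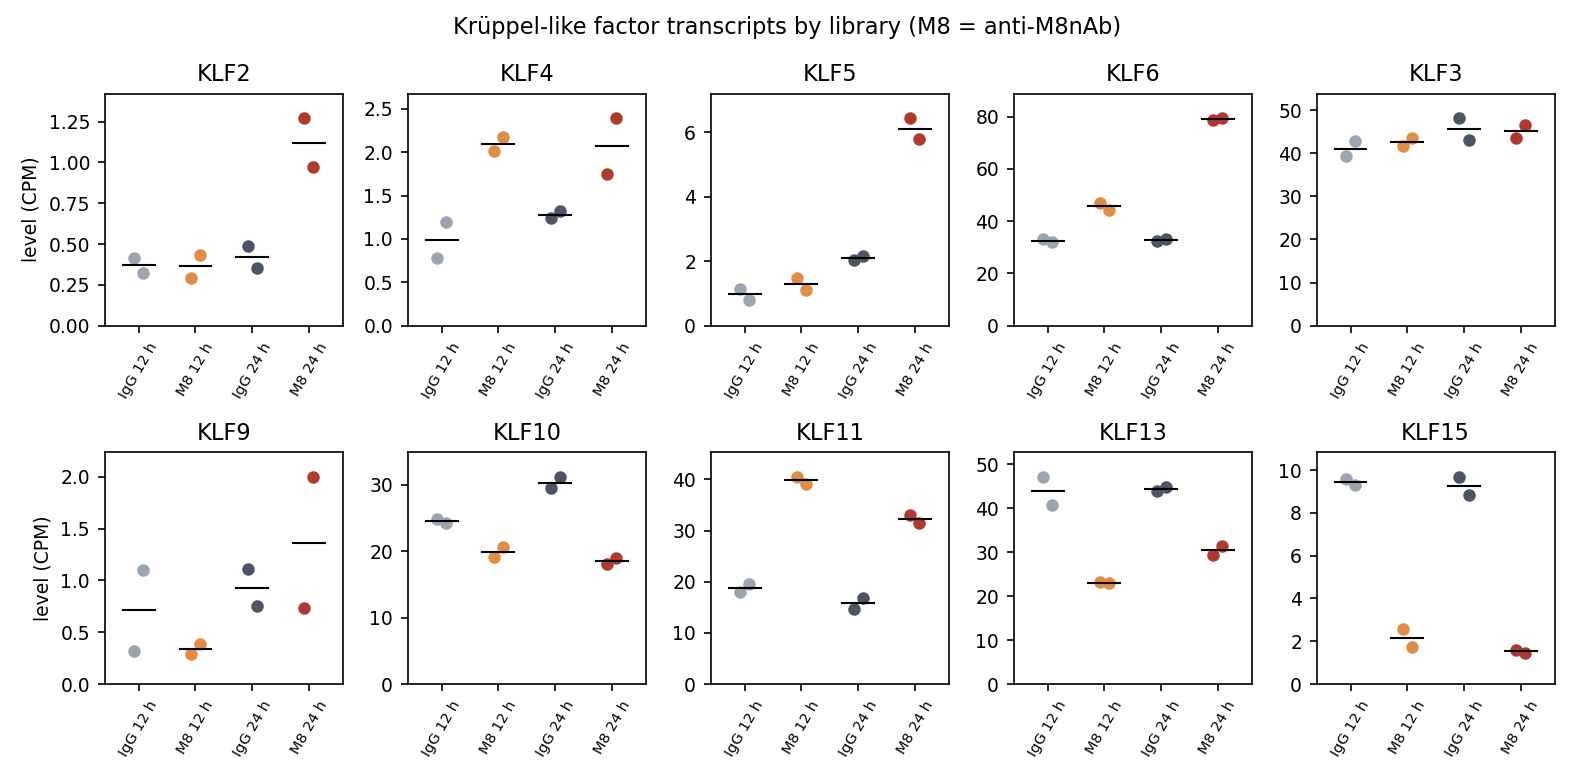
Level of each Krüppel-like factor in CPM (linear axis from 0, its own scale for each gene) in the 2 libraries of each group, with the mean as a line. KLF6 and KLF5 were highest with anti-M8nAb at 24 h, KLF11 was higher with anti-M8nAb at both times, KLF15 was lower at both times, and the points of KLF3 lay between 39.3 and 48.1 CPM in every group.

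Among the activators, KLF6 had the most transcript per length, and its excess with anti-M8nAb was larger at 24 h than at 12 h. KLF6 is a widely expressed factor described as a tumour suppressor and as an activator of the cell cycle inhibitor gene CDKN1A. Its level was 33.0 and 32.0 CPM with IgG and 47.1 and 44.1 CPM with anti-M8nAb at 12 h, and 32.3 and 33.1 CPM with IgG and 78.6 and 79.3 CPM with anti-M8nAb at 24 h. The 4 IgG libraries lay between 32.0 and 33.1 CPM, and no anti-M8nAb library reached down to them. The log2 fold change amounted to 0.49 (SE 0.08) at 12 h and to 1.27 (SE 0.08) at 24 h, and the response at 24 h exceeded that at 12 h by 0.78 (SE 0.11) on the log2 scale.

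KLF5 is a factor of proliferating epithelium and of the blastocyst. It was at 1.15 and 0.782 CPM with IgG and 1.47 and 1.11 CPM with anti-M8nAb at 12 h, with overlap. At 24 h the values were 2.04 and 2.16 CPM with IgG and 6.43 and 5.80 CPM with anti-M8nAb, and the groups were separate. The log2 fold change came to 0.41 (SE 0.35) at 12 h and 1.54 (SE 0.26) at 24 h. In counts, this is 17 to 30 reads per library at 12 h and 119 and 132 reads with anti-M8nAb at 24 h.

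KLF2, which is induced by blood flow in endothelium and keeps T cells quiescent, was near the limit of these libraries. It was at 0.415 and 0.322 CPM with IgG and 0.294 and 0.434 CPM with anti-M8nAb at 12 h, and at 0.489 and 0.352 CPM with IgG and 1.27 and 0.974 CPM with anti-M8nAb at 24 h. These are 6 to 11 reads in the first 6 libraries and 26 and 20 reads with anti-M8nAb at 24 h, the only pair that stood apart. On the log2 scale the fold change was -0.01 (SE 0.64) at 12 h and 1.40 (SE 0.53) at 24 h.

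KLF4 differed most at the earlier time. Its level was 0.783 and 1.20 CPM with IgG and 2.01 and 2.17 CPM with anti-M8nAb at 12 h, and 1.24 and 1.32 CPM with IgG and 1.75 and 2.39 CPM with anti-M8nAb at 24 h. The anti-M8nAb libraries lay above the IgG libraries at both times, with 17 to 49 reads per library. On the log2 scale anti-M8nAb differed from IgG by 1.07 (SE 0.36) at 12 h and 0.69 (SE 0.34) at 24 h, and the difference between the times of -0.39 had an SE of 0.50. Without the first IgG library at 12 h the value at 12 h was 0.81 and fell short of 2-fold.

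KLF3, the CtBP-binding repressor of the set, hardly differed. It was at 39.3 and 42.9 CPM with IgG and 41.7 and 43.5 CPM with anti-M8nAb at 12 h, and at 48.1 and 43.1 CPM with IgG and 43.6 and 46.6 CPM with anti-M8nAb at 24 h. The groups overlapped at both times. The log2 fold changes were 0.05 (SE 0.09) and -0.02 (SE 0.08).

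Within the SIN3A-binding subgroup the genes went in opposite directions. KLF10 and KLF11 are close relatives first described as early genes induced by TGF-β. KLF11 was at 18.0 and 19.5 CPM with IgG and 40.5 and 39.2 CPM with anti-M8nAb at 12 h, and at 14.7 and 16.8 CPM with IgG and 33.0 and 31.5 CPM with anti-M8nAb at 24 h. It was higher at both times. Log2 fold changes were 1.09 (SE 0.10) and 1.03 (SE 0.10) and differed by -0.05 (SE 0.14), and without the first IgG library at 24 h the later value was 0.93 and fell short of 2-fold.

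KLF10 was lower with anti-M8nAb. It was at 24.8 and 24.3 CPM with IgG and 19.1 and 20.6 CPM with anti-M8nAb at 12 h, and at 29.5 and 31.2 CPM with IgG and 18.1 and 19.0 CPM with anti-M8nAb at 24 h. The groups were separate at 12 and 24 h. Log2 fold changes were -0.30 (SE 0.10) and -0.71 (SE 0.10). The IgG libraries were higher at 24 h than at 12 h, while means with anti-M8nAb were 19.9 ± 1.06 and 18.5 ± 0.665 CPM.

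KLF13, an activator of the chemokine gene CCL5 in T cells, was lower as well. It was at 47.1 and 40.8 CPM with IgG and 23.1 and 23.0 CPM with anti-M8nAb at 12 h, and at 43.9 and 44.7 CPM with IgG and 29.4 and 31.4 CPM with anti-M8nAb at 24 h. The libraries were separate at both times, and log2 fold changes were -0.93 (SE 0.09) at 12 h and -0.54 (SE 0.09) at 24 h. KLF9, which is induced by thyroid and glucocorticoid hormones, was at 0.294 to 2.00 CPM in the 8 libraries. Its replicates differed more than its groups, with 0.323 and 1.10 CPM given IgG at 12 h and 0.730 and 2.00 CPM given anti-M8nAb at 24 h. Its log2 fold changes of -1.05 (SE 0.62) and 0.55 (SE 0.49) rest on 6 to 41 reads per library, and the groups overlapped at both times.

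KLF15 had the largest difference of the 10 genes at both times. It was at 9.58 and 9.29 CPM with IgG and 2.55 and 1.74 CPM with anti-M8nAb at 12 h, and at 9.68 and 8.81 CPM with IgG and 1.61 and 1.46 CPM with anti-M8nAb at 24 h. In reads this is 200 to 218 in each IgG library and 30 to 52 in each anti-M8nAb library. On the log2 scale anti-M8nAb differed from IgG by -2.14 (SE 0.21) at 12 h and by -2.59 (SE 0.22) at 24 h, and the 2 responses differed by -0.45 (SE 0.32) on the log2 scale.

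**Figure D3:**
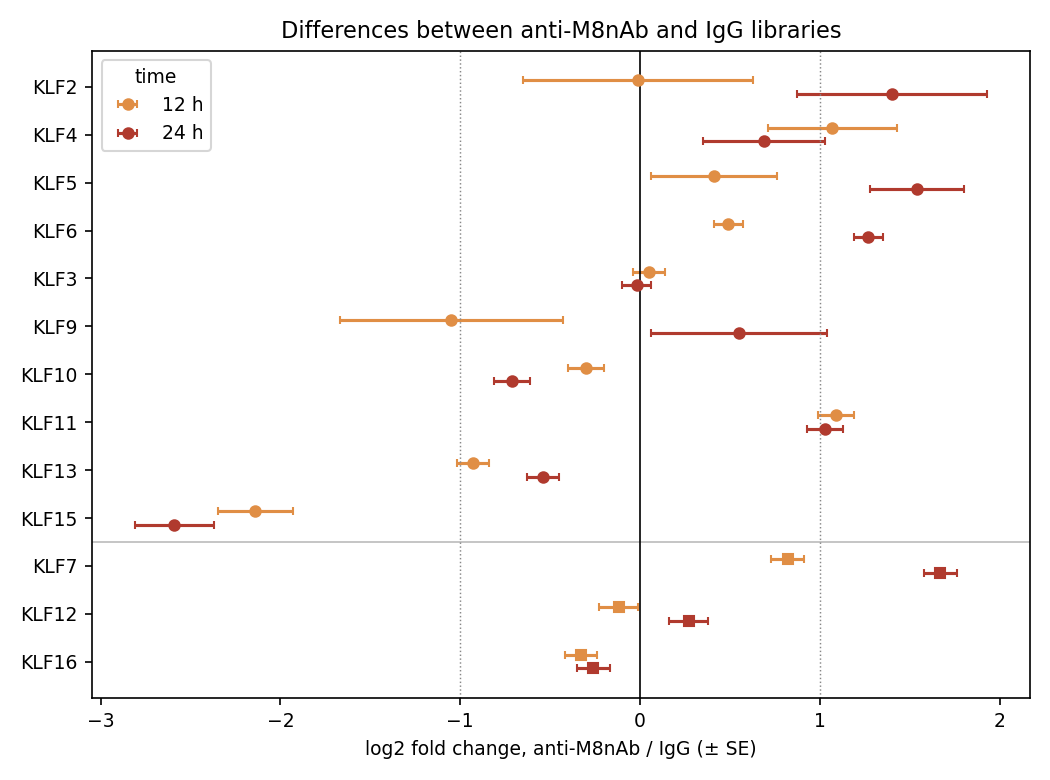
Log2 fold change of anti-M8nAb over IgG at 12 h (orange) and 24 h (red) with its standard error, for the 10 Krüppel-like factors (circles) and for 3 other family genes (squares), with dotted lines at 2-fold. KLF1, at -3.57 at 24 h on no more than 9 reads per library of that time, is not drawn. Of the genes drawn, KLF15 lay furthest to the left at both times, KLF7, KLF5 and KLF2 furthest to the right at 24 h, and both values of KLF3 lay between -0.02 and 0.05.

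Time in culture was compared between the IgG libraries alone, to show which of these genes differed between 12 and 24 h without the neutralizing antibody. These IgG libraries also serve as controls in the comparisons above. In edgeR's two-sided quasi-likelihood test, 7.01% of all genes were higher and 6.64% lower at 24 h than at 12 h at an adjusted p under 0.05. The levels of the 10 factors in these same libraries were known when they were picked, so their differences are given without p-values, and passing that threshold is no independent evidence for them. KLF5 and KLF10 were past it, both higher at 24 h. KLF5 went from 0.967 ± 0.262 to 2.10 ± 0.0817 CPM (SD, n = 2), with a log2 fold change of 1.11 (SE 0.32). KLF10 went from 24.5 ± 0.358 to 30.4 ± 1.20 CPM, with a log2 fold change of 0.31 (SE 0.10). Both were short of the threshold in DESeq2, and in edgeR without the second IgG library at 12 h or at 24 h, and KLF10 was so without the first at 12 h as well. For the other 8 factors the log2 fold change lay between -0.25 (SE 0.11) in KLF11 and 0.38 (SE 0.53) in KLF9.

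Of the 8 other family genes, the 4 above the filter were tested, although they are what the choice of the 10 left over and were listed with earlier results known. KLF8, KLF14, KLF17 and KLF18 had no more than 1 read in any library and were below the filter, among them KLF17, a marker of naive human pluripotent cells. Of the 4 tested, 1 rose and 1 fell at 12 h, where 15.8% of all genes rose and 16.4% fell at an adjusted p under 0.05, and 2 rose and 2 fell at 24 h, where 21.2% rose and 21.3% fell. The median over the 4 was -0.23 at 12 h and 0.01 at 24 h on the log2 scale, against 0.00 over all genes.

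KLF7, an activator close to KLF6 and known from sensory neurons, was at 26.0 and 26.2 CPM with IgG and 45.7 and 46.6 CPM with anti-M8nAb at 12 h. At 24 h it was at 20.3 and 22.4 CPM with IgG and 70.9 and 65.2 CPM with anti-M8nAb. It rose by 0.82 (SE 0.09, edgeR adjusted p = 3.08e-10) at 12 h and by 1.67 (SE 0.09, edgeR adjusted p = 2.05e-20) at 24 h on the log2 scale, and no library of one antibody overlapped the other. The SIN3A-binding KLF16 fell by 0.33 (SE 0.09, edgeR adjusted p = 0.00346) at 12 h and by 0.26 (SE 0.09, edgeR adjusted p = 0.0142) at 24 h, with 47.0 and 55.9 CPM given IgG and 46.8 and 39.1 CPM given anti-M8nAb at 24 h, and 16.3% of its exon bases overlap genes on the other strand. At 24 h its call was lost without the second IgG library (edgeR adjusted p = 0.334) or the second anti-M8nAb library (0.325), and at 12 h without the first IgG library (0.0547).

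KLF12, a CtBP-binding repressor that lies beyond KLF5 on chromosome 13, was at 23.7 and 23.4 CPM with IgG and 21.4 and 21.7 CPM with anti-M8nAb at 12 h, which did not pass the test (log2 fold change -0.12, edgeR adjusted p = 0.395). At 24 h it rose by 0.27 (SE 0.11, edgeR adjusted p = 0.039), from 17.5 and 17.7 to 21.5 and 21.0 CPM, and this call was lost without any 1 of the IgG or anti-M8nAb libraries of that time (edgeR adjusted p = 0.0893 to 0.136) and in DESeq2 (adjusted p = 0.099). KLF1, the erythroid factor, was called at 24 h (edgeR adjusted p = 0.00986) on 9 and 7 reads with IgG and 1 and 0 reads with anti-M8nAb, and was not called in DESeq2 (adjusted p = 0.0746), nor without the first IgG library (edgeR adjusted p = 0.0615) or the second anti-M8nAb library (0.121) of that time.

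Of the 9 SP factors, which share the GC box with this family, 6 were tested. SP2 and SP8 rose and SP1 and SP4 fell at 12 h, and SP6 rose and SP1, SP4 and SP8 fell at 24 h. The median log2 fold change was 0.00 and -0.17. SP1, a factor of many housekeeping promoters, was at 116 and 121 CPM with IgG and 94.4 and 94.4 CPM with anti-M8nAb at 12 h (log2 fold change -0.33, SE 0.06, edgeR adjusted p = 5.53e-05), and fell by 0.25 (SE 0.06, edgeR adjusted p = 0.000959) at 24 h. SP4 fell by 0.28 (edgeR adjusted p = 0.0259) and by 0.59 (edgeR adjusted p = 5.07e-06). SP8, a factor of limb and brain development, rose from 8.02 and 6.85 to 12.2 and 11.7 CPM at 12 h (log2 fold change 0.69, SE 0.15, edgeR adjusted p = 0.000431) and fell from 10.3 and 11.8 to 9.30 and 7.84 CPM at 24 h (-0.36, SE 0.15, edgeR adjusted p = 0.0485). SP2 rose by 0.42 (edgeR adjusted p = 0.00145) at 12 h and SP6 by 0.66 (edgeR adjusted p = 0.0159) at 24 h. In DESeq2 the calls of SP4 at 12 h (adjusted p = 0.0568) and of SP6 (0.0869) and SP8 (0.14) at 24 h were lost, and without the second IgG library of the same time the edgeR adjusted p was 0.0858, 0.135 and 0.292.

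Genes known to act on the family or with it were described from 6 further lists, shown together with the lists above in the plot of log2 fold changes by list. Over all 8 lists, 84 of 96 genes were tested, of which 21 rose and 16 fell at 12 h and 28 rose and 19 fell at 24 h. The lists were drawn up with earlier results of these libraries known, so the shares are descriptions to be read beside the 15.8% and 16.4% of all genes at 12 h and the 21.2% and 21.3% at 24 h.

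**Figure D4:**
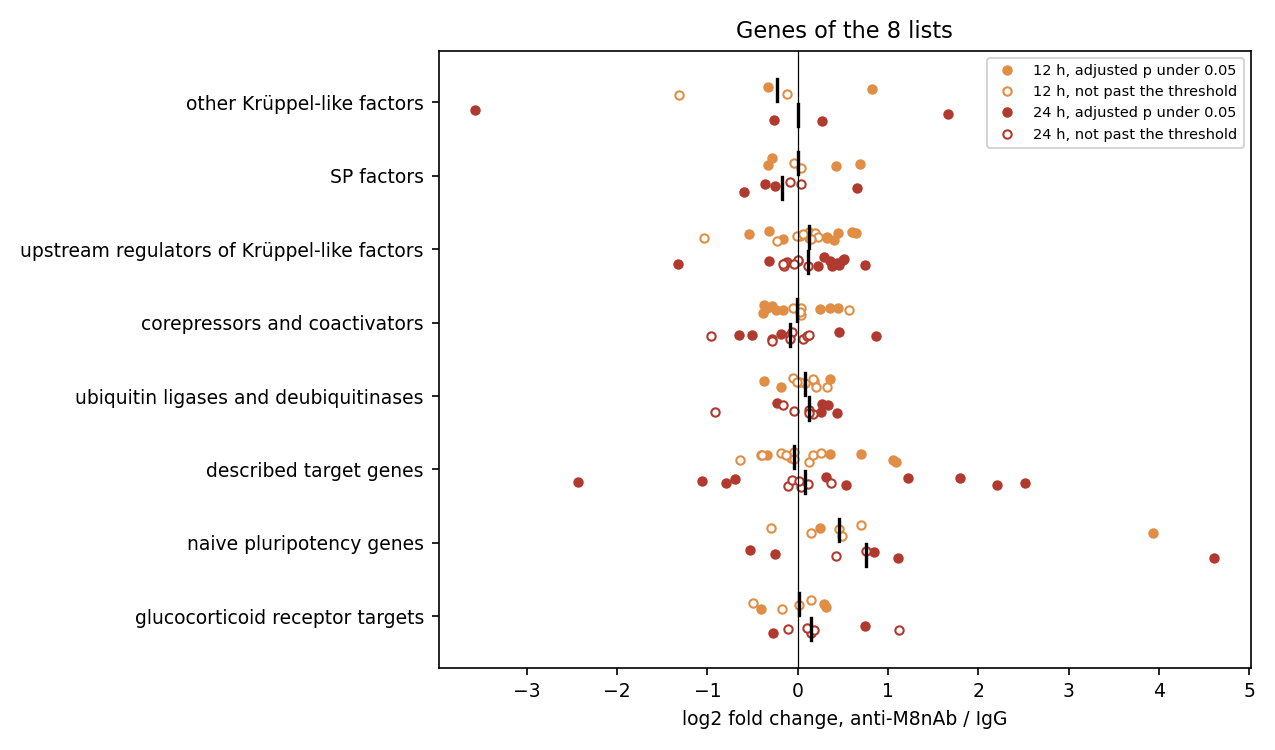
Log2 fold change of anti-M8nAb over IgG for each tested gene of the 8 lists at 12 h (orange) and 24 h (red), filled where the edgeR adjusted p was under 0.05, with a black bar at the median of each list. The medians lay between -0.23 and 0.76, and the points beyond 3 on either side are KLF1 and TBX3, which rest on few reads.

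The upstream regulators were 19 genes, among them the MEF2 factors and their kinases, serum response factor with its partners, FOXO and SMAD factors, STAT3 and the glucocorticoid receptor. At 12 h 6 rose and 3 fell, and at 24 h 9 rose and 2 fell, with median log2 fold changes of 0.13 and 0.11. The named genes of this list, those with the smallest adjusted p, all rose. SRF, which drives early growth genes through the CArG box, was at 127 and 122 CPM with IgG and 196 and 183 CPM with anti-M8nAb at 12 h, and rose by 0.60 (SE 0.06, edgeR adjusted p = 1.49e-11) at 12 h and by 0.51 (SE 0.06, edgeR adjusted p = 6.96e-10) at 24 h. Its partner ELK4 rose by 0.65 (edgeR adjusted p = 7.34e-09) and by 0.44 (edgeR adjusted p = 8.49e-06). Another partner, ELK1, named after its values were seen, fell by 0.32 at both times (edgeR adjusted p = 0.0038 and 0.00215). FOXO3 rose by 0.45 (edgeR adjusted p = 0.000289) and by 0.75 (edgeR adjusted p = 5.95e-09), and SMAD2, a transducer of TGF-β signals, by 0.40 (edgeR adjusted p = 1.12e-05) and 0.29 (edgeR adjusted p = 0.00064). MAP3K3, a kinase above the ERK5 and MEF2 route to KLF2, rose by 0.32 (edgeR adjusted p = 0.000958) and 0.38 (edgeR adjusted p = 6.15e-05). The call of SMAD2 at 24 h was lost without the second IgG library (edgeR adjusted p = 0.0856).

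The MEF2 genes themselves were looked at after their values were seen, because KLF2 held a MEF2 site. MEF2A, with 11.1% of its exon bases under a gene on the other strand, was at 25.0 to 28.6 CPM in all libraries. MEF2D rose at 24 h from 23.3 and 24.7 to 34.4 and 33.4 CPM (log2 fold change 0.50, edgeR adjusted p = 0.000128) and not at 12 h (0.12, edgeR adjusted p = 0.437). MEF2C was at 0.969 and 1.38 CPM with IgG and 0.438 and 0.487 CPM with anti-M8nAb at 24 h (edgeR adjusted p = 0.0348).

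Of the 14 corepressors and coactivators, 3 rose and 6 fell at 12 h, and 2 rose and 4 fell at 24 h, with median log2 fold changes of -0.01 and -0.09. SIN3A, the corepressor bound by KLF9, KLF10, KLF11 and KLF13, was at 137 and 135 CPM with IgG and 109 and 103 CPM with anti-M8nAb at 12 h. It fell by 0.37 (SE 0.07, edgeR adjusted p = 1.66e-05) at 12 h and by 0.65 (SE 0.07, edgeR adjusted p = 4.90e-11) at 24 h. HDAC1, the deacetylase of that complex, fell by 0.39 (edgeR adjusted p = 3.87e-06) and 0.51 (edgeR adjusted p = 9.27e-09). Both genes for CtBP, the partner of KLF3, were among those that fell at both times, and genes on the other strand overlap 34.2% of the exon bases of CTBP2 and 14.3% of those of CTBP1. The acetyltransferase genes KAT2A and CREBBP rose, KAT2A by 0.45 (edgeR adjusted p = 2.03e-05) and 0.87 (edgeR adjusted p = 2.36e-12) and CREBBP by 0.36 (edgeR adjusted p = 2.35e-05) and 0.46 (edgeR adjusted p = 2.16e-07).

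Of 11 ubiquitin ligases and deubiquitinases described for Krüppel-like factors, 1 rose and 2 fell at 12 h, and 4 rose and 1 fell at 24 h, with medians of 0.08 and 0.12. WWP1, a ligase of KLF2 and KLF5, fell by 0.19 (edgeR adjusted p = 0.0399) at 12 h and by 0.23 (edgeR adjusted p = 0.00696) at 24 h. Both calls were near the threshold, and without the first IgG library of the same time the edgeR adjusted p was 0.273 and 0.0768. SMURF1 fell by 0.37 (edgeR adjusted p = 0.000174) at 12 h, where SIAH1 rose by 0.36 (edgeR adjusted p = 0.00192). BTRC, SMURF2 and VHL, which are other ligase components, rose by 0.44 (edgeR adjusted p = 5.02e-05), 0.34 (edgeR adjusted p = 0.00151) and 0.26 (edgeR adjusted p = 0.00552) at 24 h. A gene on the other strand overlaps 26.8% of the exon bases of SIAH1, 23.5% of those of VHL and 11.7% of those of SMURF1. The call of SMURF2 was lost without the second IgG library (edgeR adjusted p = 0.116).

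Of 18 genes described as targets of the family, 16 were tested. At 12 h 4 rose and 1 fell, and at 24 h 6 rose and 4 fell, with medians of -0.04 and 0.08. CDKN1A, the cell cycle inhibitor gene activated by KLF4 and KLF6, was at 9.77 and 10.9 CPM with IgG and 24.0 and 20.0 CPM with anti-M8nAb at 12 h, and at 20.8 and 18.5 CPM with IgG and 102 and 124 CPM with anti-M8nAb at 24 h. It rose by 1.09 (SE 0.12, edgeR adjusted p = 2.94e-10) and by 2.52 (SE 0.10, edgeR adjusted p = 1.90e-25). ATF3, a stress factor, rose by 1.05 (edgeR adjusted p = 1.08e-12) and 2.21 (edgeR adjusted p = 1.35e-24), and PLAU, the urokinase gene, by 0.70 (edgeR adjusted p = 2.49e-07) and 1.80 (edgeR adjusted p = 8.49e-22). Of the exon bases of PLAU and CCND1, 31.0% and 10.4% overlap a gene on the other strand, whose reads may not have been told apart. TGFBR1 rose by 0.36 (edgeR adjusted p = 6.27e-05) at 12 h. CCND1, the cyclin D1 gene, fell by 0.34 (edgeR adjusted p = 8.72e-05) and 0.69 (edgeR adjusted p = 1.49e-11). The other genes called at 24 h were named after their calls were seen. Of these, ODC1, THBD and LGALS3 rose, and S1PR1, SMAD7 and SLC2A4 fell.

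The naive pluripotency list held 10 genes, of which 7 were tested. At 12 h 2 rose and 0 fell in edgeR, where 0 were lower at an unadjusted p under 0.05, as in DESeq2, and at 24 h 3 rose and 2 fell, with medians of 0.46 and 0.76. TBX3 was called at both times (edgeR adjusted p = 9.55e-07 and 3.59e-06) at no more than 0.23 CPM in any IgG library and 1.07 to 2.46 CPM with anti-M8nAb. NANOG rose by 0.25 (SE 0.06, edgeR adjusted p = 0.00121) at 12 h, from 105 CPM in both IgG libraries to 128 and 122 CPM, and fell by 0.25 (SE 0.06, edgeR adjusted p = 0.00108) at 24 h, from 108 and 105 to 90.1 and 89.0 CPM. ESRRB rose by 1.11 (SE 0.27, edgeR adjusted p = 0.000816) and TFAP2C by 0.84 (SE 0.21, edgeR adjusted p = 0.000869) at 24 h, both below 8 CPM in every library. TFCP2L1, named after its call was seen, was the other gene of this list that fell at 24 h.

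KLF9 and KLF15 are known targets of the glucocorticoid receptor, and 7 other such genes were therefore listed. At 12 h 2 rose and 1 fell, and at 24 h 1 rose and 1 fell, with medians of 0.01 and 0.15. FKBP5 fell by 0.41 (SE 0.07, edgeR adjusted p = 1.44e-05) and 0.27 (SE 0.07, edgeR adjusted p = 0.00173). TSC22D3 rose by 0.31 (edgeR adjusted p = 0.0499) and 0.75 (edgeR adjusted p = 1.83e-06), and ERRFI1 by 0.29 (edgeR adjusted p = 0.00133) at 12 h, so the called genes of this list went both ways. The call of TSC22D3 at 12 h was lost in DESeq2 (adjusted p = 0.131) and without any 1 library of that time (edgeR adjusted p = 0.0786 to 0.241). The receptor gene NR3C1, looked at after its values were seen, was at 17.6 and 17.8 CPM with IgG and 12.1 and 12.2 CPM with anti-M8nAb at 12 h (log2 fold change -0.54, edgeR adjusted p = 0.00403), and at 11.5 and 7.05 against 8.32 and 10.2 CPM at 24 h.

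Last, the genes nearest to 3 of the factors in pattern were sought among 11166 protein-coding genes of at least 5 CPM on average. The measure was the root mean square difference over the 8 libraries of log2 CPM (prior count 2) centred on each gene, on which low counts are drawn together. Nearest to KLF5, the one of the 10 with the largest positive log2 fold change at 24 h, were PLK2 at 0.20, SLC30A1 at 0.26 and RNASE1 at 0.27, where the median gene lay at 1.01. PLK2, a polo-like kinase, was at mean levels of 12.2, 21.2, 24.7 and 82.8 CPM with IgG and anti-M8nAb at 12 h and with IgG and anti-M8nAb at 24 h. Nearest to KLF15 were CACNA1H at 0.24, THEM6 at 0.30 and SLCO4A1 at 0.34, with the median gene at 1.18. CACNA1H, a calcium channel subunit, was at 37.9, 10.9, 45.6 and 6.70 CPM in the same order. Nearest to KLF4 were DNAJB9 at 0.15, TNK1 at 0.18 and SCN4A at 0.20, with the median gene at 0.50. DNAJB9, a chaperone of the endoplasmic reticulum, was at 15.2, 26.3, 19.1 and 30.3 CPM. The likeness is a description over libraries that share their groups.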

How the data were processed

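RNA from BG01 hESCs was sequenced in 8 libraries, 2 in each of 4 groups. Per the labels and the methods of the study, the authors used Trimmomatic for trimming, STAR for alignment to GRCh38.p14, Picard to take out duplicates and HTSeq to count reads over Ensembl genes. The deposited counts per gene and the FPKM that the authors computed with RNAnorm were used. The submitters' processing notes also list FastQC 0.11.9 and GATK. Of each table, 4 further columns were not used. Lines without a gene name, 1005 in all, were left out of the counts. The first 1000 of them made up 0.192 to 0.21% of a library before the last 5, and the largest of the last 5 held 49.3 to 50.2% of all counts. Symbols came from GENCODE by gene identifier, for all 62086 genes.

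Counts of the 20165 genes that passed edgeR's filter were TMM-scaled. The fit in edgeR 4.0.16 (R 4.3.3) gave each group its mean, and contrasts were tested by quasi-likelihood (two-sided), with Benjamini-Hochberg adjustment over all of these genes. The common biological coefficient of variation was 5.53%. The script was tested on simulated data. As alternatives, DESeq2 1.42.0, its size factors in edgeR, no filter, the replicate number as a block, leaving out each library, only the 2 groups compared, and limma 3.58.1 on log2(FPKM + 1) or log2(FPKM + 0.1) were run. Genes were named by a rule, which takes all 10 members, the called genes of the family and SP lists, up to 4 genes of each other list and time by smallest adjusted p, and the 3 genes nearest in pattern to each of 3 members. Members and lists were chosen with earlier results of these data known. Promoters came from RefSeq (GRCh38.p14).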

Additional observations from a re-analysis of the deposited data

Results flagged for a closer look

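Of the 36 genes named from the lists, 9 responded differently to anti-M8nAb at 24 h than at 12 h (edgeR's quasi-likelihood test of the difference, adjusted p under 0.05). This call was made for 12.3% of all genes tested, but the 36 were named because they were called at 12 or 24 h, so the shares are not comparable. Of the 4 other family genes tested, KLF7 was among them. Its response was larger at 24 h by 0.85 on the log2 scale (adjusted p = 2.55e-06). The responses of the described target genes were larger at 24 h by 1.43 for CDKN1A (adjusted p = 2.17e-09), 1.16 for ATF3 (adjusted p = 3.9e-09) and 1.10 for PLAU (adjusted p = 3.55e-08), and that of the coactivator gene KAT2A by 0.42 (adjusted p = 0.00989). The responses of SIN3A and CCND1, which fell at both times, differed by -0.28 (adjusted p = 0.037) and -0.34 (adjusted p = 0.012). SP8 and NANOG rose at 12 h and fell at 24 h, and their responses differed by -1.05 (adjusted p = 0.000513) and -0.50 (adjusted p = 5.37e-05). In all 9 the libraries of the 2 antibodies did not overlap at either time. Among all genes tested, 32.9% were higher and 33.3% lower without overlap at 12 h, and 34.8% and 34.2% at 24 h. The 9 were named for being called in these same libraries, so nothing is read from the lack of overlap. The fall of SP8 at 24 h was lost in DESeq2 (adjusted p = 0.14). Groups of 2 libraries were not searched for outlying samples.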

How the results depend on the processing

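Of all genes tested, 7.01% were higher and 6.64% lower at 24 h than at 12 h in the IgG libraries in edgeR. Among the 10 factors, 2 passed the threshold for time in these libraries, on levels that were known when the factors were picked. In 4 settings 0 were called, namely without the filter on low counts, in DESeq2, in limma on log2(FPKM + 0.1) or in limma on log2(FPKM + 1) over all genes, and 1 in limma on log2(FPKM + 1) at a mean FPKM of at least 0.5. Each of these 4 had 3 at an unadjusted p under 0.05. Leaving out 1 library gave 0 to 2. The count of factors at least 2-fold apart with separate libraries was 3 at 12 h and 5 at 24 h. It was 3 to 4 and 4 to 6 without 1 library, and in limma it was 1 at 12 h and 2 at 24 h on log2(FPKM + 1), both with the filter and over all genes, and 3 at 24 h on log2(FPKM + 0.1). The pseudocount lowers the fold of genes of low FPKM by construction, and the filter on mean FPKM left out KLF2, KLF4 and KLF9. No called difference of the 10 factors changed direction under any of these alternatives.

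Of the listed genes, 37 were called at 12 h and 47 at 24 h, with 29 to 39 and 37 to 48 without 1 library and 21 at 12 h in limma over all genes. The responses of 2484 genes other than the 10 differed between the times. This count was 1451 without the first and 1564 without the second IgG library at 12 h, and 1451 to 2196 over all libraries left out. It was 1227 without the filter, 918 and 895 in limma on log2(FPKM + 1) and log2(FPKM + 0.1) with the filter on FPKM, and 453 over all genes. The cause was not tested. Deviations of replicate 1 from the group mean correlated between -0.10 and 0.05 over the 6 pairs of groups (12557 genes). No strong shared effect of the replicate number was seen, though this cannot settle whether the libraries were paired. With the replicate block 2 factors were called for time, 36 listed genes at 12 h, 47 at 24 h and 2432 genes for the difference. Leaving 1 library in a group assumes that it varies like the others. At this depth, KLF2, KLF4, KLF5 and KLF9 had fewer than 50 reads in most libraries, which limits their folds.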
